A study of Mus musculus with 2 samples.

Results

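The genes of the cytosolic translation initiation and elongation factors were examined in old mice, in total RNA of the left cerebral cortex. They were chosen by name: protein-coding genes of the GENCODE M21 annotation whose symbol begins with Eif or Eef and a digit. The eIF2 gamma genes Eif2s3x and Eif2s3y were left out, and 66 genes of 55536 annotated ones remained. Both libraries came from a single group of male B6CASTF1/J mice, the F1 offspring of B6 and CAST parents, at an age of 18 to 20 months. No allele was altered and no agent was given, as far as the labels say, and 300 ng of RNA with ERCC spike-ins entered each library. The samples are biological replicates 1 and 2 per the labels, which give them separate biosample identifiers but 1 donor identifier and leave unstated whether separate animals were used. Their spread may thus be technical. With no second condition, the data describe levels, ratios between related genes, transcript use and the difference between these 2 libraries.

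Initiation factors bring the small ribosomal subunit with its initiator tRNA to a messenger RNA and place it on a start codon, and elongation factors then carry aminoacyl-tRNAs to the ribosome and move it along the message. The supply of active eIF2 and the access of the cap-binding protein eIF4E to its scaffold are the main points of control, through eIF2 alpha kinases and eIF4E-binding proteins. In neurons, local translation near synapses is regulated through both points and through the kinase of elongation factor eEF2.

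Annotated genes held 22827996 expected counts in the library of replicate 1 and 29897545 in that of replicate 2. Markers of brain cell classes were present. All 3 neuron, 3 excitatory neuron, 3 inhibitory neuron, 3 astrocyte, 3 oligodendrocyte and 3 microglia markers were detected in both libraries. The libraries differed in striatal projection neuron markers, of which 8 of 8 were higher in replicate 2 by a log2 ratio of 0.5 or more. Their summed level was 152 TPM in replicate 1 and 330 in replicate 2. Of 11647 nuclear protein-coding genes, 1.18% were higher by that much. The list was chosen with earlier results of these data known, so its count is not independent support for a difference. Of the markers tested in the other lists, Ttr was the 1 past that limit, at 0.97. Medians were 0.23 for inhibitory neuron and 0.22 for microglia markers, and 0.04 for neuron and for astrocyte markers. The 3 endothelial and 3 erythroid markers were also detected. Of the choroid plexus markers, Ttr stood at 9.59 and 17.1 TPM, Kl at 1.45 and 1.28, and Folr1 at 0.29 and 0.05. In bulk tissue, fewer cells of a type and less RNA per cell cannot be told apart.

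Levels below are in TPM, a transcript abundance divided by length and scaled to a fixed total per library, and come from the gene table unless the second quantification is named, which is a transcript table made in another way and summed per gene. A pair of values gives replicate 1 and then replicate 2. Related genes were called different where their deposited TPM intervals, of a level not given in the sources used here, did not overlap in either library and pointed the same way. At 1 TPM or more in both libraries, 63 of the 66 translation factor genes were detected (95.5%), against 58.5% of all 22015 nuclear protein-coding genes. The 3 not detected were Eif4e1b, a relative of eIF4E known from oocytes, with 0.17 and 0.03 TPM, and the methyltransferase genes Eef1akmt3, with 0.05 and 0.07, and Eef1akmt4, with 0.65 and 1.23. The detected members had a median of 31.9 and 35.5 TPM, where detected nuclear protein-coding genes had 16.8 and 15.4. Together the 66 genes held 1.19% and 1.25% of nuclear protein-coding TPM. The levels were uneven, with 13 genes at a mean of 100 TPM or more and 7 detected genes under 10. The 5 most abundant members, Eef1a1, Eef1a2, Eif4a2, Eef2 and Eif1, held 49.3% and 50.01% of the set's TPM, and all 5 were among the 100 most abundant nuclear protein-coding genes.

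**Figure D1:**
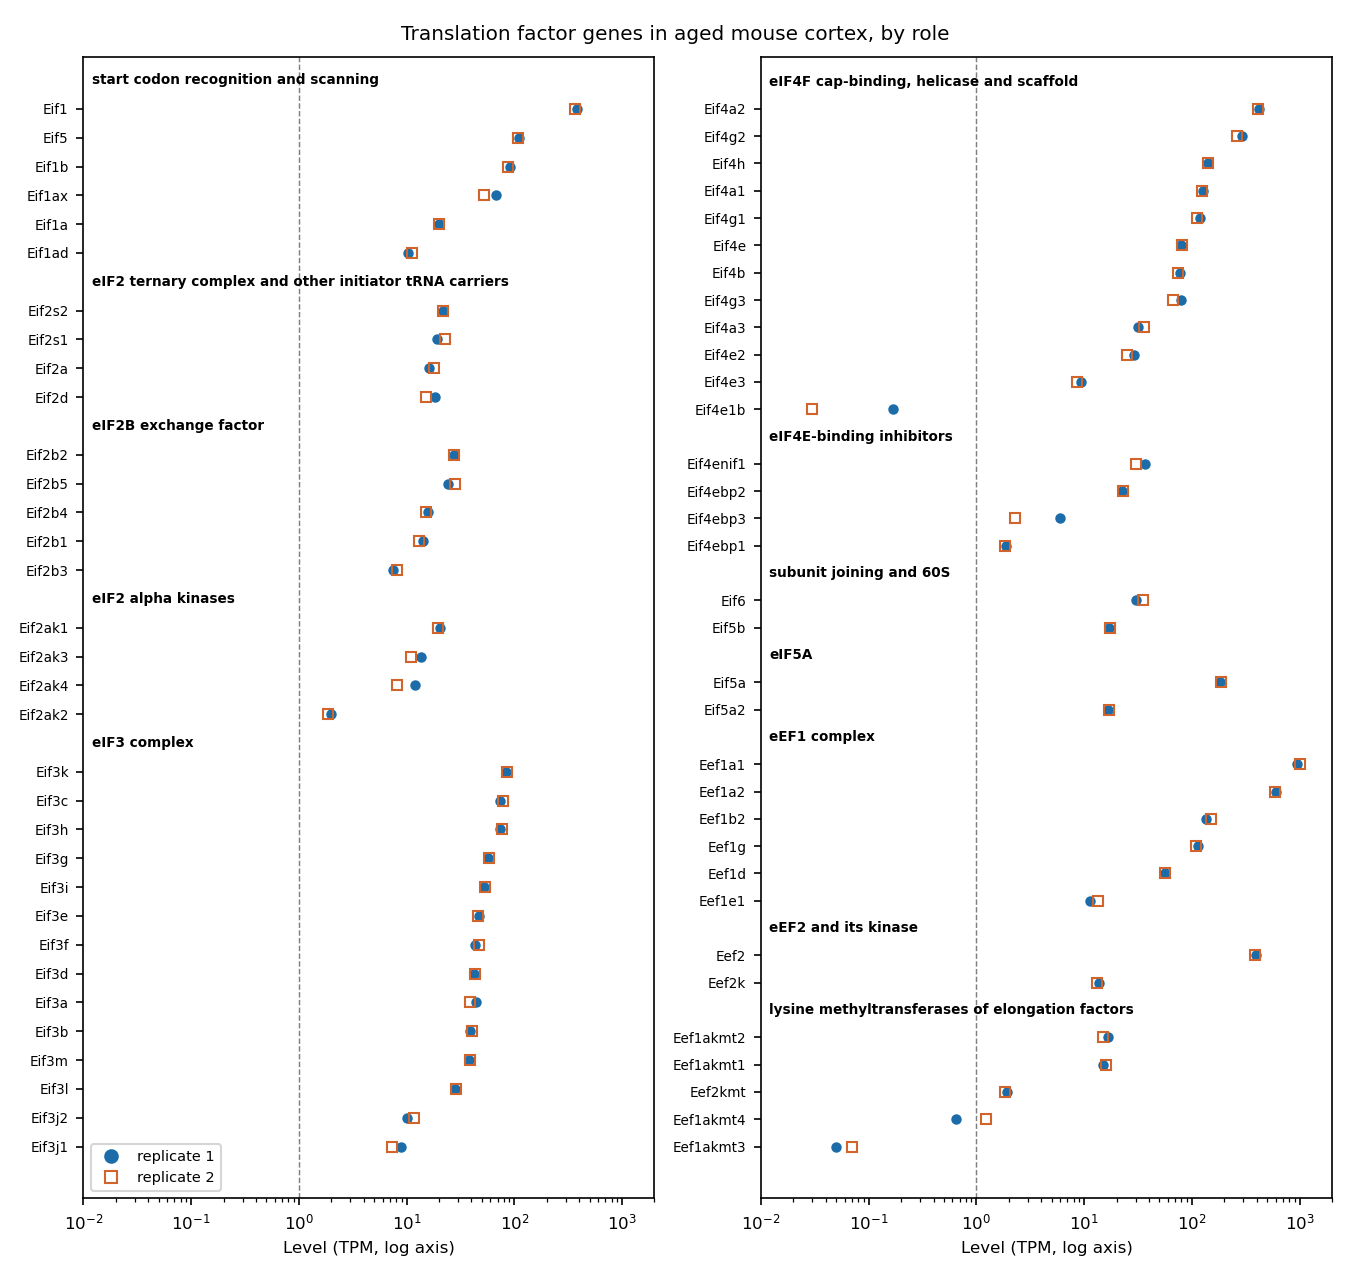
Level in TPM (log axis) of each translation factor gene, grouped by role, with a filled circle for replicate 1 and an open square for replicate 2; the dashed line marks the detection limit of 1 TPM. Eef1a1 stands highest at 946 and 1016 TPM, and 3 genes lie at or below the limit in at least 1 library.

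Among the factors that act while the small subunit scans for a start codon, Eif1 was the most abundant. Its product guards against initiation at wrong codons, and it stood at 379 and 365 TPM. Its paralog Eif1b was at 90.7 and 86.9 TPM, 4.19-fold lower, and 3.29-fold lower in the second quantification. Eif1-202, a processed transcript of 383 bases, held 51.9% and 51.2% of Eif1 TPM. The protein_coding Eif1-201 stood at 157 and 155 TPM. Eif5, which makes eIF2 hydrolyse its GTP at the start codon, was at 110 and 108 TPM. Of the eIF1A genes, the X-linked Eif1ax stood at 67.9 and 51.9 TPM and Eif1a at 19.9 and 20.0, a 2.97-fold difference. The second quantification placed Eif1ax at 36.7 and 35.9 TPM, 1.98-fold above Eif1a. Replicate 1 was the higher one for Eif1ax in TPM, but its counts, 3405 and 4490, gave a log2 ratio of replicate 2 over replicate 1 of 0.06 after TMM scaling, which sets the bulk of genes equal. The 95% interval for counting error ran from -0.01 to 0.12. Most of the difference in TPM lay in Eif1ax-202, a retained-intron transcript of 416 bases. It was listed at 24.2 and 9.70 TPM on 3.35% and 1.42% of the gene's counts, and at 0 in the second quantification. The protein_coding Eif1ax-201 stood at 43.65 and 42.15 TPM. Eif1ad, which carries an eIF1A domain, was the lowest of the 6, at 10.4 and 11.3 TPM.

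The opening coding bases of the Eif1 pair show how far coding reads can be told apart, which the ratio of the pair rests on in part. Eif1 (ENSMUSG00000035530.13) lies at chr11:100319885-100322096 on the plus strand of GRCm38 and Eif1b (ENSMUSG00000006941.5) at chr9:120492232-120495330, also on the plus strand. Coding bases 1 to 90 of each are printed 5′ to 3′ from the GENCODE transcripts Eif1-201 and Eif1b-201, and capitals mark the 13 bases that differ between them. Over the whole coding sequence the pair is 81.1% identical, and the longest identical run is 25 bases.
Eif1: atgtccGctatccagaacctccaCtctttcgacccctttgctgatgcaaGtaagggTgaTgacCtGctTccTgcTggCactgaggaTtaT
Eif1b: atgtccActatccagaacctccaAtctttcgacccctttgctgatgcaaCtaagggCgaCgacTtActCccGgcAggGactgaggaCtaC

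Of the eIF2 subunit genes, Eif2s1, which encodes the alpha subunit that is phosphorylated under stress, stood at 19.1 and 22.7 TPM, and Eif2s2, the beta subunit, at 21.8 and 21.6. The second quantification placed Eif2s1 lower, at 10.8 and 13.5 TPM, and Eif2s2 at 21.1 and 20.7. In the first quantification Eif2s1-203, a processed transcript of 433 bases, held 44.8% and 51.1% of Eif2s1 TPM. It held 7.85% and 9.85% of the gene's counts, and the protein_coding Eif2s1-201 stood at 9.76 and 10.4 TPM. Eif2a and Eif2d, whose products can deliver initiator tRNA by other routes, were at 16.1 and 17.9 TPM and at 18.3 and 15.1. The 4 genes of this role spanned 1.30-fold in mean TPM, and 1.72-fold in the second quantification.

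The 5 subunit genes of eIF2B, which reloads eIF2 with GTP and whose human counterparts are mutated in vanishing white matter disease, ranged 3.69-fold in replicate 1 and 3.49-fold in replicate 2. Eif2b2 (27.5 and 27.3 TPM) and Eif2b5, the catalytic epsilon subunit (24.1 and 28.1), led in TPM summed per gene. Transcripts not annotated protein_coding held 56.6% and 51.2% of Eif2b2 TPM. The protein_coding Eif2b2-201 stood at 11.1 and 12.4 TPM, and Eif2b5-201 at 21.9 and 20.1. Eif2b2 had 361 and 524 counts and Eif2b5 835 and 1206. Eif2b4 followed at 15.9 and 15.3 TPM and Eif2b1 at 14.3 and 13.2. Eif2b3, the gamma subunit, was lowest at 7.44 and 8.07 TPM. In the second quantification the order changed for Eif2b1, which stood at 25.2 and 22.6 TPM there.

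The eIF2 alpha kinases were led by Eif2ak1, the heme-regulated kinase HRI, at 20.6 and 19.5 TPM. Eif2ak3, the endoplasmic reticulum stress kinase PERK, stood at 13.6 and 10.9 TPM, and Eif2ak4, the amino acid sensor GCN2, at 11.9 and 8.10. Eif2ak2, the double-stranded RNA sensor PKR, was lowest at 1.98 and 1.85 TPM, with 102 and 111 counts, and at 4.47 and 2.48 TPM in the second quantification. Eif2ak1 exceeded Eif2ak2 by 3.39 ± 0.01 (log2 ratio of TPM, mean ± SD, n = 2 libraries), or 10.5-fold, and 5.21-fold in the second quantification. Eif2ak1 also exceeded Eif2ak4, by 1.03 ± 0.34. Eif2ak3 and Eif2ak4 were not called different: their log2 ratio was 0.31 ± 0.16, and their deposited TPM intervals were apart in replicate 2 and overlapped in replicate 1.

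The eIF3 complex bridges the small subunit and the eIF4F-bound message, and all 14 of its genes were detected. Leaving aside Eif3j1 and Eif3j2, whose product binds loosely, the 12 subunit genes lay within a 2.99-fold range in both replicates, with a coefficient of variation of 32.7% and 34.3%. Eif3k was highest at 84.3 and 85.6 TPM, followed by Eif3c at 73.3 and 79.2 and Eif3h at 74.4 and 76.4. Eif3g, an RNA-binding subunit, stood at 56.4 and 57.8 TPM. Eif3i, Eif3e, Eif3f, Eif3d, Eif3a, Eif3b and Eif3m had mean levels between 38.6 TPM (Eif3m) and 53.0 (Eif3i). Eif3l was lowest of the 12 at 28.2 and 28.6 TPM. The second quantification gave a similar range, 3.17-fold and 3.18-fold.

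Eif3b, Eif3d, Eif3g and Eif3i spanned 1.44-fold in both replicates, and the 8 octamer genes a, c, e, f, h, k, l and m spanned 2.99-fold. In expected counts, a scale without division by length, the 12 genes spanned 4.59-fold and 4.497-fold. Eif3j1 stood at 8.82 and 7.38 TPM and Eif3j2 at 10.1 and 11.7. Their coding sequences are 99.2% identical, with a run of 781 identical bases, so their reads can be split between them only outside it and each level is uncertain. Their log2 ratio was -0.43 ± 0.33 in TPM but 0.67 ± 0.29 in counts, and the pair was not called.

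**Figure D2:**
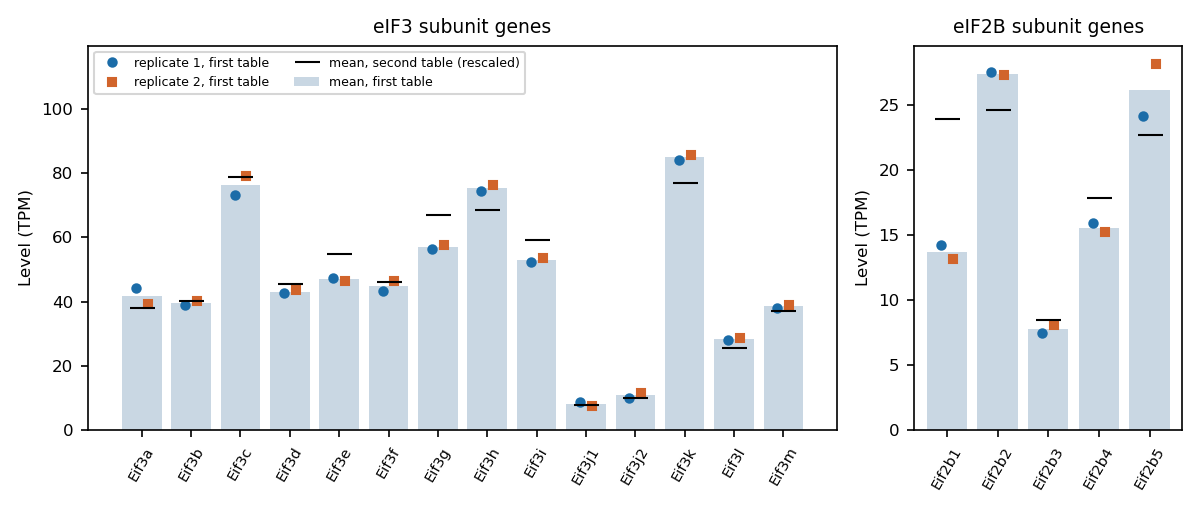
Level in TPM of the genes of the eIF3 and eIF2B complexes, with bars for the mean of the 2 libraries, points for each replicate and black lines for the mean in the second quantification, rescaled to the same nuclear protein-coding total. The 12 tightly bound eIF3 genes run from 28.2 to 84.3 TPM in replicate 1, and Eif3j1 and Eif3j2 lie below them.

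The eIF4F factors unwind the message and hold its cap. The helicase gene Eif4a2 led this role at 417 and 412 TPM, and Eif4a1, its paralog, stood at 127 and 124. Eif4a2 thus exceeded Eif4a1 by 1.72 ± 0.01 in log2 TPM, or 3.29-fold. The size depended on the quantification, since the second one placed Eif4a1 at 235 and 249 TPM and gave a ratio of 1.62-fold. Transcripts not annotated protein_coding held 74.9% and 70.0% of Eif4a1 TPM there, against 26.4% and 14.3% in the first quantification. For Eif4a2 they held 41.3% and 39.7% there, against 61.1% and 55.5%. The ratio of protein_coding transcripts alone was not tested. A processed pseudogene on chromosome 1, Eif4a-ps4, is 99.9% identical to the Eif4a1 coding sequence over 1218 bases and was listed at 15.7 and 13.9 TPM, so reads of Eif4a1 may be shared with it. Eif4a3, the helicase of the exon junction complex, was at 31.9 and 35.7 TPM, 12.3-fold below Eif4a2.

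The coding bases that open Eif4a1 and Eif4a2 are shown because their ratio differed between the quantifications. Eif4a1 (ENSMUSG00000059796.16) lies at chr11:69666936-69672423 on the minus strand and Eif4a2 (ENSMUSG00000022884.15) at chr16:23107444-23114136 on the plus strand of GRCm38. Coding bases 1 to 90 of Eif4a1-213 and 1 to 96 of Eif4a2-203 are aligned to each other, and capitals mark bases that differ or have no partner in the other sequence. There are 31 such positions, 6 of them gaps in Eif4a1. The coding sequences are 77.6% identical, and no identical run is longer than 20 bases.
Eif4a1: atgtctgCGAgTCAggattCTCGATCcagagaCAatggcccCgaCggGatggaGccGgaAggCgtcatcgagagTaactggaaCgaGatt
Eif4a2: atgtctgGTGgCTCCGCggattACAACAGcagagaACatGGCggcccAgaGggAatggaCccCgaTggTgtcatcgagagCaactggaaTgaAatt

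Of the scaffold genes, Eif4g2 was the most abundant at 291 and 264 TPM. Its product, also called DAP5, lacks the eIF4E-binding site. Eif4g1, the main cap-dependent scaffold, stood at 120 and 113 TPM and Eif4g3 at 80.0 and 66.6. Eif4g2 exceeded Eif4g1 by 1.26 ± 0.04 in log2 TPM and Eif4g1 exceeded Eif4g3 by 0.67 ± 0.13. Eif4h and Eif4b, which stimulate the helicase, stood at 141 and 142 TPM and at 77.6 and 74.5, a log2 ratio of -0.89 ± 0.05 for Eif4b over Eif4h. In counts the excess of Eif4h was 1.15-fold, against 1.86-fold in TPM.

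Eif4e, the cap-binding protein itself, was at 79.7 and 81.3 TPM. Its relatives were lower: Eif4e2, which binds caps without recruiting the scaffold and represses translation, stood at 28.8 and 25.2 TPM and Eif4e3 at 9.45 and 8.61. The log2 ratio of Eif4e over Eif4e2 was 1.58 ± 0.15 and over Eif4e3 3.16 ± 0.11.

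The proteins that block eIF4E were unequal. Eif4ebp2, the eIF4E-binding protein known as the main one of brain, stood at 22.3 and 23.0 TPM. Eif4ebp1 was at 1.88 and 1.84 TPM, a log2 ratio of -3.61 ± 0.05 to Eif4ebp2, or 12.2-fold lower, and 7.40-fold lower in the second quantification. The level of Eif4ebp1 is uncertain, as it rested on 32 and 49 counts. Transcripts not annotated protein_coding held 62.8% and 51.1% of its TPM, and 0% and 6.61% in the second quantification. Eif4ebp3 was listed at 5.93 and 2.26 TPM on 57 and 30 counts. It lies inside another annotated protein-coding gene on the same strand, so its level is uncertain. Eif4ebp2 was higher by 2.63 ± 1.01 in log2 TPM. Eif4enif1, which shuttles eIF4E and binds it in processing bodies, was at 37.1 and 30.1 TPM.

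Eif5b, the GTPase that joins the ribosomal subunits, stood at 17.1 and 17.5 TPM, and Eif6, which keeps the large subunit from joining too early, at 30.4 and 35.5. Eif5a, the hypusine-bearing factor that helps ribosomes past stalling sequences, reached 181 and 185 TPM. Its paralog Eif5a2 was at 16.7 and 16.9 TPM, so the log2 ratio was 3.45 ± 0.0079, or 10.9-fold. In counts the ratio was 2.45-fold, the leading transcripts being 1343 bases for Eif5a and 5027 for Eif5a2.

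The members tied to elongation held a large part of the set's abundance, 41.6% and 42.7% of its TPM. This share counts Eef2k, Eef1e1 and the methyltransferase genes with the elongation factors. Eef1a1, which delivers aminoacyl-tRNA to the ribosome, stood at 946 and 1016 TPM and ranked 10th among nuclear protein-coding genes by mean. Eef1a2, the paralog that neurons and muscle switch to after birth, was at 609 and 586 TPM. Eef1a1 exceeded Eef1a2 by 0.71 ± 0.11 in log2 TPM, 1.64-fold, by 1.93-fold in the second quantification and by 1.28-fold in counts. Both libraries placed Eef1a1 higher under each measure. Eef1a1 has 8 near-identical copies elsewhere, all processed pseudogenes, which together were listed with 3.74% and 3.65% of the joint counts of gene and copies.

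The opening coding bases of the eEF1A pair are printed because the pair leads the whole set. Eef1a1 (ENSMUSG00000037742.14) lies at chr9:78478449-78489151 and Eef1a2 (ENSMUSG00000016349.10) at chr2:181147653-181157014, both on the minus strand of GRCm38. In coding bases 1 to 90 of Eef1a1-201 and Eef1a2-201, capitals mark the 15 bases that differ. The whole coding sequences are 79.9% identical, with a longest identical run of 23 bases.
Eef1a1: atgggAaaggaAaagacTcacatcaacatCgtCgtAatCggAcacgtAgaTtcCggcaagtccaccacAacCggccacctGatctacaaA
Eef1a2: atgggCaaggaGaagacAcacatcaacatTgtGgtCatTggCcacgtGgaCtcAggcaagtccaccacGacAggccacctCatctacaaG

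The genes of the eEF1 exchange complex, which recharges eEF1A with GTP, were lower than both eEF1A genes. Eef1b2 stood at 136 and 150 TPM, Eef1g at 115 and 108, and Eef1d at 56.2 and 56.2. Eef1b2 exceeded Eef1d by 1.34 ± 0.10 in log2 TPM, or 2.54-fold, by 3.24-fold in the second quantification and by 1.24-fold in counts. Eef1e1, a scaffold subunit of the multi-tRNA synthetase complex, was lowest at 11.3 and 13.4 TPM. It was also the only detected member whose quantifications differed by 1 or more in log2, at -1.11, with 5.99 and 5.40 TPM in the second one. That is 1.59% of the 63 detected members, and 1.44% of all detected nuclear protein-coding genes differed as much.

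Eef2, the translocase, stood at 395 and 387 TPM, and Eef2k, the calcium-dependent kinase that inactivates it, at 13.6 and 13.1. Of the methyltransferase genes that modify elongation factors, Eef1akmt2 was at 16.6 and 15.1 TPM, Eef1akmt1 at 14.9 and 15.9, and Eef2kmt at 1.92 and 1.85. The second quantification placed Eef1akmt2 at 27.9 and 22.6 TPM.

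Across the 18 pairs of related genes compared, 16 were called different. All 18 kept their sign in the second quantification and 17 did in counts, Eif3j1 over Eif3j2 being the exception. Replicate 2 alone would have called all 18. The deposited TPM of 7 members lay outside its own deposited interval in at least 1 library. For Eef1a1 in replicate 1 the TPM was 946 and the interval 889 to 928. The other 6 were Eef1a2, Eef2, Eif2b4, Eif4a2, Eif4e1b and Eif4h.

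**Figure D3:**
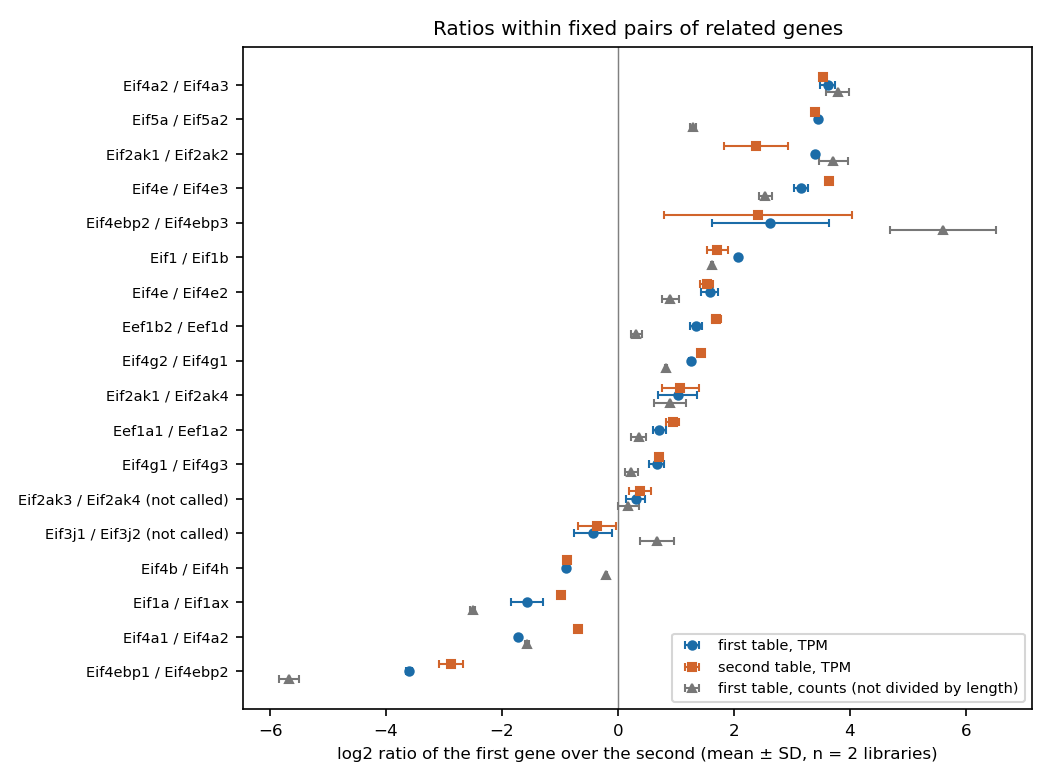
Log2 ratio of the first-named gene over the other in 18 pairs of related genes, as mean ± SD of 2 libraries, from TPM of the first table, TPM of the second table, and counts of the first table, which are not divided by length. In TPM of the first table, Eif4a2 over Eif4a3 is the highest at 3.62 and Eif4ebp1 over Eif4ebp2 the lowest at -3.61; Eif3j1 over Eif3j2 is the pair whose counts fall on the other side of 0.

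Copies of the members' coding sequences were sought among all annotated transcripts, at 95% identity or more over at least 300 bases. Of the 66 genes, 49 had no such copy and 17 had 46 between them, 37 of which are annotated as processed pseudogenes. A mean of 1 TPM or more was listed for 15 copies. In both libraries, copies held 5% or more of the joint counts for 6 members, namely Eef1g, Eif1, Eif3j1, Eif3j2, Eif4a1 and Eif4a3, so the levels of these are less certain. For Eif1 the share was 9.14% and 9.47%, nearly all of it from Emd, the protein-coding emerin gene. A transcript of Emd holds 343 bases that are 96.8% identical to Eif1. All counts of Emd, 373 and 521, entered the share, so it can overstate how uncertain the Eif1 level is. For Eef1g it was 9.96% and 7.48%, from the pseudogenes Gm5525 and Gm4366 in the main. For Eif4a1 it was 8.61% and 7.39%.

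Genes of the translation machinery commonly host small nucleolar RNAs (snoRNAs), which guide the modification of ribosomal RNA. The annotation places 18 snoRNA genes within the span of 9 members on the same strand, and 6 of these were at 1 TPM or more in both libraries. Gm22988, at chr11:69669635-69669778 inside Eif4a1, was listed at 769 and 730 TPM on 514 and 680 counts. Gm26447, at chr16:23111301-23111429 inside Eif4a2, was listed at 572 and 560 TPM on 255 and 347 counts. In TPM, both were listed above their host gene. In counts both were below it, with 2800 and 4038 for Eif4a1 and 8415 and 11728 for Eif4a2. Gm22988 is 144 bases long and Gm26447 129, so their TPM rests on a small length and is uncertain. The other 4 detected were Gm25835 in Eif4a1 (44.9 and 71.9 TPM), Gm23262 in Eif4g2 (44.7 and 68.2), Gm24616 in Eif4a2 (6.73 and 9.66) and Gm23346 in Eif2ak3 (1.82 and 2.61, on 1 and 2 counts). Another 9 snoRNA genes, among them Snord37 in Eef2 and Snora28 in Eif5, were listed at 0 in both libraries.

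Transcript use was examined in the 55 members that had at least 5 TPM in each library and at least 2 annotated transcripts. The transcript with the largest share was the same in both libraries for 50 of them (90.9%, against 89.5% of 9375 nuclear protein-coding genes under the same filter). In the second table it was the same for 52 (94.5%, against 87.7%). Both libraries and both tables named 1 transcript for 38 members (69.1%, against 67.8%), so the members' shares lay near the background. The leading transcript changed between libraries in the first table for Eef1e1, Eef2k, Eif2b4, Eif2s1 and Eif4e. For Eif4e, Eif4e-205 held 41.6% and 34.2% and Eif4e-202 held 29.2% and 37.7%, and the second table changed in the same way.

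For 2 members the leading transcript in both libraries of the first table was not annotated as protein_coding (3.64%, against a background of 5.92%). Eif4a2-210, annotated as a target of nonsense-mediated decay, held 41.8% and 42.3% of Eif4a2 TPM, with the protein_coding Eif4a2-203 at 21.8% and 23.1%. In the second table Eif4a2-210 held 8.1% and 8.5%, and the protein_coding Eif4a2-201 led with 46.6% and 45.1%. The libraries gave like shares within each table, whereas the tables differed. Eif1-202, a processed transcript of 383 bases, held 51.9% and 51.2% of Eif1 TPM but 21.6% and 21.01% of its counts, and 25.7% and 30.5% of its TPM in the second table. There the protein_coding Eif1-201, of 1322 bases, led with 64.9% and 57.5%.

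Transcripts not annotated protein_coding held 50% or more of the TPM in both libraries for 5 members, Eef1e1, Eif1, Eif2b2, Eif4a2 and Eif5b (9.09%, against 8.77%). In Eif2b2 this share was 56.6% and 51.2% in the first table and 52.5% and 55.5% in the second. In Eif5b it was 50.6% and 52.9%, and 71.6% and 77.0% in the second, led by the retained-intron transcript Eif5b-202 there. Of these 5 genes, Eif2b2 and Eif5b also passed 50% in both libraries of the second table. In counts of the first table the shares were 28.3% and 23.2% for Eif2b2 and 30.9% and 24.4% for Eif5b. By counts Eif4a2 was the 1 gene of the 5 above 50% in both libraries, at 63.3% and 59.6%. Eif4a1 went the other way, with 26.4% and 14.3% in the first table and 74.9% and 70.0% in the second. So did Eef1b2, with 32.0% and 36.2% in the first table and 66.6% and 60.2% in the second. In the median member, the share was 12.7% in replicate 1 and 7.74% in replicate 2, where the median background gene had 15.3% and 11.5%. By counts, an alternative chosen after the data were seen, the medians were 5.26% and 3.07% for members and 6.43% and 4.58% for the background.

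**Figure D4:**
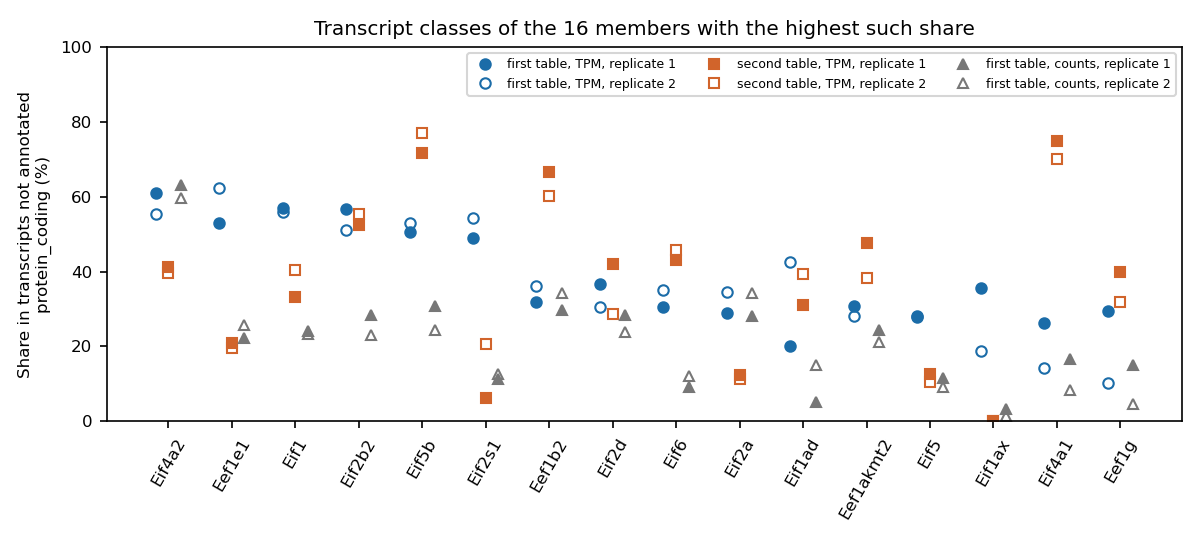
Percent of each gene held by transcripts not annotated protein_coding, for the 16 translation factor genes with the highest share in the first table, with filled symbols for replicate 1 and open ones for replicate 2. The tables lie far apart for Eif4a1 (26.4% against 74.9% in replicate 1) and close together for Eif2b2 (56.6% against 52.5%).

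Between the libraries, no translation factor gene differed by a log2 ratio of 0.5 or more after TMM scaling, among the 60 with a mean count of 100 or more. Of 11647 nuclear protein-coding genes tested in the same way, 1.18% were higher and 1.2% lower by that much in replicate 2. The members' ratios ran from -0.27 (Eif2ak4) to 0.42 (Eif4a3). Eif4a3 had 552 and 936 counts, with a 95% counting interval of 0.26 to 0.57, and 31.9 and 35.7 TPM. Eif2ak4 had 731 and 768 counts, with an interval of -0.42 to -0.12. In deposited TPM Eif2ak4 was past the limit, and in the second quantification Eif2ak2 was, both lower in replicate 2.

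By the other rule, that the counting interval excludes 0, 34 members were higher in replicate 2 (56.7%) and 3 were lower (5%). The background for that rule was 28.4% higher and 14.2% lower, and intervals are narrower for genes with more counts. The 3 lower members were Eif2ak4, Eif2d at -0.18 (-0.36 to -0.01) and Eif4g3 at -0.08 (-0.13 to -0.03). The split depended on the scaling. Spike-in totals lowered every log2 ratio by 0.126, and with them 7 members were higher, Eef1a1, Eef1b2, Eef1g, Eif3j2, Eif4a3, Eif4h and Eif5a (11.7% of 60), and 14 were lower (23.3%). The background with spike-in totals was 7.29% higher and 33.9% lower. The median log2 ratio of members was 0.13 against 0.05 in the background. With spike-in totals these medians were 0.0043 and -0.07. Eef1a1, with 21588 and 32803 counts, stood at 0.26 (0.24 to 0.28), and Eef1a2, with 17975 and 24064, at 0.08 (0.05 to 0.11). With spike-in totals and in deposited TPM, Eef1a1 was still the higher in replicate 2 and Eef1a2 was lower.

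The counts by role are read against the same backgrounds, 28.4% higher and 14.2% lower with TMM scaling and 7.29% higher and 33.9% lower with spike-in totals. The eIF3 complex had 11 of 14 genes higher beyond counting error and 0 lower with TMM scaling, at a median of 0.17, but 1 higher and 2 lower with spike-in totals, at a median of 0.05. The 6 genes listed under the eEF1 complex include Eef1e1. Of these 6, 5 were higher and 0 lower, and 3 were higher and 1 lower with spike-in totals. Eef1e1 was the 1 not higher with TMM scaling (0.12, interval -0.12 to 0.36). Of the 11 eIF4F genes tested, 8 were higher and 1 lower, and 2 were higher and 3 lower with spike-in totals. Of the eIF2 alpha kinases, Eif2ak1 was higher with TMM scaling (0.13, interval 0.02 to 0.24) but not with spike-in totals. Eif2ak4 was lower under both scalings, and Eif2ak3 was lower with spike-in totals. Neither eIF4E-binding inhibitor tested, Eif4ebp2 and Eif4enif1, was in either class with TMM scaling, and both were lower with spike-in totals.

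The ratio moved with the length of the leading transcript, a comparison added after the data were seen. Members under 2000 bases had a median of 0.18 (25 genes), those of 2000 to 4000 bases 0.11 (21 genes) and those over 4000 bases -0.01 (14 genes). In the background the medians were 0.10, 0.07 and 0.0009. The part of length, and of the striatal marker difference given above, in the members' ratios was not tested. Among the 6 members with fewer counts, Eif4ebp3 stood at -1.26 (-1.96 to -0.61) on 57 and 30 counts and Eef1akmt4 at 1.05 on 10 and 27 counts, with an interval that included 0.

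**Figure D5:**
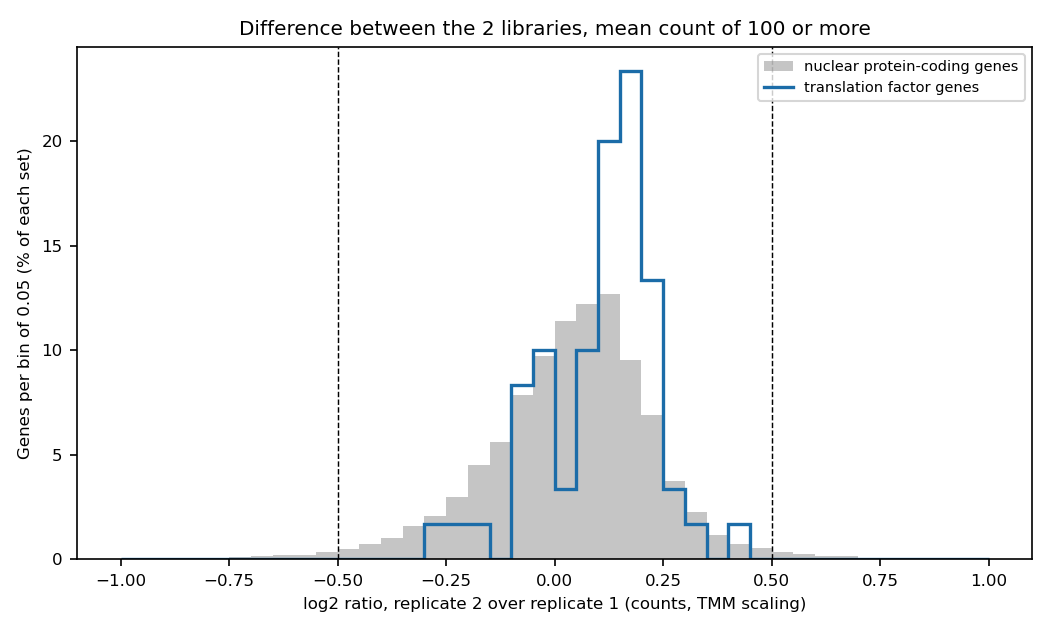
Distribution of the log2 ratio of replicate 2 over replicate 1 (counts, TMM scaling) as percent of genes per bin, for 11647 nuclear protein-coding genes in grey and 60 translation factor genes as a blue outline, both with a mean count of 100 or more. All members lie between the dashed lines at -0.5 and 0.5, with a median of 0.13 against 0.05.

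Other genes of the translation pathway were taken from 7 lists, and 52 of these 53 genes were detected. Of the 48 with enough counts, 15 were higher in replicate 2 beyond counting error (31.2%, near the background of 28.4%) and 3 lower (6.25%, against 14.2%) with TMM scaling, and 0 passed a log2 ratio of 0.5. With spike-in totals 2 were higher, Asns and Dohh (4.17%, against 7.29%), and 12 lower (25%, against 33.9%), so the other directions below hold for TMM scaling, except the 3 lower genes, which were lower under both. Counts by list are read against the TMM background, 28.4% higher and 14.2% lower, and each list holds few genes. Termination and recycling genes were at a median of 29.0 and 28.4 TPM, with Etf1, the release factor that reads stop codons, at 28.8 and 29.1 TPM and higher by 0.15 (0.06 to 0.25), and 2 of 4 were higher. Of the poly(A)-binding proteins and partners 4 of 5 were higher, and Pabpc1, which links the tail to eIF4G, stood at 109 and 97.1 TPM.

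The targets of eIF2 alpha phosphorylation and its phosphatase subunits were expressed at mixed levels. Atf4, the transcription factor translated when eIF2 is limiting, was at 56.1 and 54.2 TPM, and Asns, the asparagine synthetase it activates, at 46.5 and 50.4. Ddit3, which encodes CHOP, stood at 23.6 and 21.1 TPM, and Chac1 and Atf3 at 3.06 and 3.30 and at 1.34 and 1.33. Trib3, at 0.24 and 0.30 TPM, was the 1 listed gene not detected. Of the 5 tested in this list 2 were higher, Asns at 0.27 (0.17 to 0.38) and Ppp1r15b at 0.11 (0.01 to 0.20), and 0 were lower.

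Of the 9 mTOR and MNK signalling genes 0 were higher and 1 lower, namely Rps6kb2, a ribosomal protein S6 kinase, with 467 and 421 counts (-0.49, interval -0.69 to -0.30). Mtor stood at 43.6 and 39.4 TPM, and Mknk1 and Mknk2, the kinases of eIF4E, at 16.5 and 12.7 and at 26.0 and 20.5. Among the 7 neuronal regulators, 2 were higher and 2 lower, against backgrounds of 28.4% and 14.2%. Cyfip2, a partner of FMRP, was the most abundant at 290 and 281 TPM, and Fmr1 was at 31.6 and 29.4. The lower ones were the polyadenylation element-binding genes Cpeb1 (-0.22, interval -0.32 to -0.11) and Cpeb2 (-0.18, interval -0.26 to -0.10). Of the mitochondrial translation factors 2 of 7 tested were higher, near the background of 28.4%. The elongation factor Tufm, at 33.6 and 38.9 TPM, was among them. Of the modifiers 3 of 11 tested were higher, also near that background. They included Dhps and Dohh, the enzymes that make hypusine on eIF5A, at 0.20 (0.01 to 0.39) and 0.27 (0.13 to 0.40).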

How the data were processed

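Total RNA-seq of 2 libraries was used, with 3 deposited tables for each. The deposited expected counts and TPM of genes and transcripts have the layout of RSEM, and the deposited estimated counts and TPM of the second transcript table that of kallisto, per the file headers. Per the file lists, GENCODE M21 on mm10 was the annotation used. Not given in the sources used here are the tool versions, the level of the TPM intervals and whether counting used strand; 13 members overlap an opposite-strand gene at a mean of 1 TPM or more. CAST alleles were read against the reference, and their part was not tested.

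Expected counts were rounded. The log2 ratio of replicate 2 over 1 was taken with 0.5 added, after TMM scaling (edgeR 4.0.16, R 4.3.3), with a 95% exact (Clopper-Pearson) interval that covers counting error only. DESeq2 1.42.0 size factors, spike-in totals and TPM were alternatives. The second quantification was summed per gene and rescaled to the nuclear protein-coding TPM of the first. Copies were found with BLASTN 2.17.0. The ratio was also run on simulated counts with Poisson error only. These hold no further spread and no length trend, so the run does not bear on how certain the ratios are here. With 1 group no p-value was calculated.

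Members, roles, pairs and lists were chosen with earlier results of these data known. Named in full are the genes of the pairs, the 3 highest and the lowest detected member of each role, and members past a log2 of 0.5 between replicates or 1 between quantifications.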

Additional observations from a re-analysis of the deposited data

How the results depend on the processing

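The number of members detected, the number of pairs called, and the number with the same leading transcript in both libraries stayed within 1.5 times of the reported values under every alternative run, and leaving out either replicate gave 63 to 64 members detected and 16 to 18 pairs called. On the scale of expected counts the members' share of the nuclear protein-coding total was 0.877% against 1.22%, and the median share in transcripts not annotated protein_coding was 4.16% against 10.2%. The members' median log2 ratio between libraries was 0.13 with DESeq2 size factors, 0.0043 with spike-in totals, 0.17 in the second quantification and -0.0047, the other sign, in deposited TPM. Spike-in totals left 7 members higher and 14 lower beyond counting error, against 34 and 3. Deposited TPM and the second quantification each placed 1 member past -0.5, as did a mean count of 10 or more and a minimum of 1 count in total. Those filters placed 1 and 2 members past 0.5. Among all nuclear protein-coding genes tested, 137 lay at 0.5 or above and 140 at -0.5 or below. With spike-in totals these numbers were 64 and 332, and 648 were lower in deposited TPM. With a mean count of 10 or more they were 584 and 525, and with 1 count in total 1610 and 1468. The filters differ in the number of genes tested, and the cause of the other shifts was not tested. No paired analysis was possible because the series has 1 group. Of 63 detected members' levels, 49 moved by more than 1 SD of 2 libraries in the second quantification. That SD can be close to 0, as for Eef1d at 0.014, which moved from 56.2 to 55.2 TPM. The detected members whose mean differed by more than 1.5 times were Eef1akmt2, Eef1e1, Eif1ax, Eif2ak2, Eif2b1, Eif2s1 and Eif4a1. The depth left 6 members under a mean of 100 counts.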
